A study of Mus musculus with 17 samples.

Results

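Immediate early genes are genes that a cell transcribes within minutes of a stimulus, from factors already present and without new protein synthesis. The 10 genes described here, Fos, Fosb, Jun, Junb, Egr1, Atf3, Nr4a1, Ier2, Ier3 and Dusp1, were chosen by their symbols from a table of 22558 genes measured in mouse whole kidney, and all 10 had an entry. The Ctrl group held 5 male C57BL/6 mice that received saline, and the Case group held 6 male db/db mice, which lack a working leptin receptor and become obese and diabetic, that also received saline. The Dapa group held 6 male db/db mice given dapagliflozin, which blocks glucose uptake by SGLT2 in the proximal tubule, at 1 mg/kg per day. Treatment lasted 6 weeks from 8 weeks of age, and the kidneys were taken right after CO2 narcosis and cervical dislocation. The db/db mice were BKS.Cg-Dock7m +/+ Leprdb/J, so the Lepr mutation and the strain background cannot be told apart in any comparison with Ctrl. The mutation itself could not be checked in read counts per gene.

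Fos and Fosb pair with Jun and Junb to form the transcription factor AP-1, and Atf3 is a stress-induced partner of the same bZIP class. Egr1 is a zinc finger factor and Nr4a1 an orphan nuclear receptor, both induced by growth factors and calcium. Ier2 and Ier3 are small proteins of the early response, and Dusp1 is a phosphatase that switches off the MAP kinases that induce the others. In kidney, ischemia, hypertonic stress and handling of the tissue are known to induce these genes.

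The stretch just before the start of transcription is where the factors behind a fast response bind. For 8 of the 10 genes, all but Egr1 and Ier2, a RefSeq promoter (GRCm38.p6) was available, and the 250 bases before the start were searched. Both strands were searched for TGACG (a part of the cAMP response element), TGACGTCA (the whole element, which contains the short site) and the AP-1 site TGAGTCA. GCGNGGGCG (Egr) and the CArG box of serum response factor were also searched on both strands, and TATAAA (the TATA box) on the gene's strand. The short site TGACG was found in 6 of the 8 promoters (Fos, Fosb, Junb, Atf3, Nr4a1 and Dusp1), against 17.8% of all 32851 promoters listed. The whole element was found in that of Dusp1 alone (1.55% of all promoters), GCGNGGGCG in those of Fosb and Nr4a1 (4.70%), and TATAAA in that of Fos (7.59%). The AP-1 site (4.46%) and the CArG box (1.47%) were in none of the 8 windows, which says only that these letters are not there. The promoters of Fos, Fosb, Junb, Nr4a1 and Jun are shown, since their RefSeq start is that of the deposited gene model. They are written 5′ to 3′ on the gene's strand, with the motif matches in capitals. Fos lies at chr12:85473890-85477273 (plus strand), Fosb at chr7:19302721-19310045 (minus), Junb at chr8:84976909-84978748 (minus), Nr4a1 at chr15:101266846-101274792 (plus) and Jun at chr4:95049034-95052222 (minus), and each stretch is the 250 bases just before that start.
Fos: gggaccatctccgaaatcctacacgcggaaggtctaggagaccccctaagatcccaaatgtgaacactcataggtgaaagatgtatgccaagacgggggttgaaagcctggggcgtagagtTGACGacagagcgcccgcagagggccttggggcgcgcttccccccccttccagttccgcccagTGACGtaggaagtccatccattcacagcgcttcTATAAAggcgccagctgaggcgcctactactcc
Fosb: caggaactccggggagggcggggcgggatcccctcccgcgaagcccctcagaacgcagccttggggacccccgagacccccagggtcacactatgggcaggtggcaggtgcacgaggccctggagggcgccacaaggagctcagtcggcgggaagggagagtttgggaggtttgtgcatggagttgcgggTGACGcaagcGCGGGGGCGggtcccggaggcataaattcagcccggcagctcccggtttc
Junb: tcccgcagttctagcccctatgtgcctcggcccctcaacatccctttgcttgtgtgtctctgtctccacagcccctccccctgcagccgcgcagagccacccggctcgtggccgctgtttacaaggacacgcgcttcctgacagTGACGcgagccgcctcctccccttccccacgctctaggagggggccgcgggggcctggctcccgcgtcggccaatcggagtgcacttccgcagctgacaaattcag
Nr4a1: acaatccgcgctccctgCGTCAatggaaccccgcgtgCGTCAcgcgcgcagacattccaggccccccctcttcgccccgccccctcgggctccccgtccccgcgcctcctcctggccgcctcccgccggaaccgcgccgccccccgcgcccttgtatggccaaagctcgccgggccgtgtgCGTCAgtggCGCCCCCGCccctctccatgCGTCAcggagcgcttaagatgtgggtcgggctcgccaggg
Jun: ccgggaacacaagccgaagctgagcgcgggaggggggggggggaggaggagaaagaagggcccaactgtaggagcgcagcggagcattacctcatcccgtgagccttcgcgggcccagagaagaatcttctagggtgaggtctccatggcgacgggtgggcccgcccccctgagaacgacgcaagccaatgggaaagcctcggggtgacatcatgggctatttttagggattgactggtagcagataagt
Fos holds 2 TGACG sites upstream of its TATAAA and Nr4a1 holds 4 TGACG sites (read as CGTCA on its strand). None of the motifs matched exactly in the promoter of Jun, and variants of these letters were not searched. None of the 50-base stretches of the 10 genes' transcripts occurred in transcripts of another gene. Junos overlaps Jun, and Gm24748 overlaps Atf3, both on the opposite strand, and the libraries were strand-specific.

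The libraries held 13039535 to 17779635 counts, and mitochondrial genes gave 17.9% to 20.4% of the counts in Ctrl, 19.8% to 27.3% in Case and 19.7% to 27.6% in Dapa, a share whose part in the results was not tested. Markers of kidney were abundant in all 17 mice, with 839 to 1805 FPKM (fragments scaled to transcript length and library size) for Slc34a1 of the proximal tubule and 317 to 2221 for Umod of the loop of Henle. In 8 libraries (Ctrl 1 to 4, Case 1 and Dapa 10 to 12) the FPKM and the counts of 3 unrelated genes did not match, and these libraries were treated as a possible batch whose nature is not given.

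In the Ctrl kidneys the levels of the 10 genes spanned a wide range of FPKM, a scale that is per length. Ier3 was highest with a mean of 12.0 ± 2.91 (SD, n = 5), followed by Dusp1 with 8.28 ± 1.09 and Jun with 7.64 ± 1.10. Junb had 3.65 ± 0.586, Ier2 2.94 ± 0.753 and Nr4a1 1.58 ± 0.261. Atf3 (0.527 ± 0.142), Egr1 (0.502 ± 0.236), Fos (0.383 ± 0.198) and Fosb (0.102 ± 0.0674) were lowest. In this order the ranges of neighbours overlapped except between Jun and Junb, Ier2 and Nr4a1, and Nr4a1 and Atf3. Fos rested on 7 to 40 counts and Fosb on 3 to 13 counts in a Ctrl mouse, so counting error weighs on their Ctrl levels.

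The first comparison asked how the kidneys of untreated db/db mice differed from those of Ctrl mice. Of the 10 genes, 5 were higher in Case (q under 0.05, quasi-likelihood test of edgeR, adjusted after Benjamini and Hochberg over 14582 genes) and none was lower, while 13.0% of all genes tested were called and 6.09% were called higher. The 5 were Fos, Egr1, Nr4a1, Junb and Ier2. With the study's added threshold of a 2-fold difference in mean FPKM, 4 of them remained (all but Ier2), against 3.79% of all genes. The median log2 fold change was 1.01 over the 10 genes and 0.03 over all genes. In none of the 10 did the Case mice stand fully apart from the Ctrl mice, which was the case in 8.43% of all genes.

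**Figure D1:**
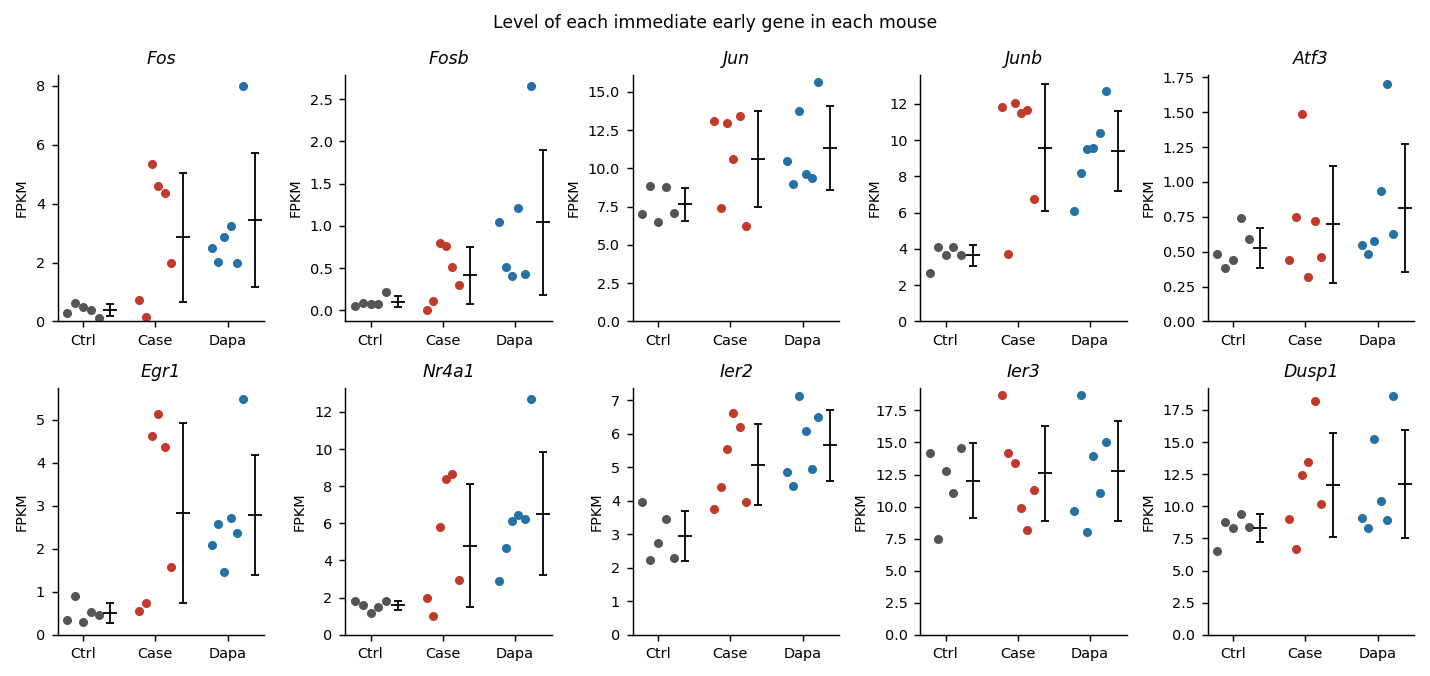
FPKM (vertical axis, linear scale) of the 10 genes in each mouse, by group (points, in order of replicate number), with the group mean and SD beside the points. Case 1 and Case 2 lie inside the Ctrl range for Egr1 and inside it or closer to it than Case 3 to 6 for Fos and Nr4a1, and all 6 Dapa mice lie above every Ctrl mouse for 7 of the genes.

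Fos, the AP-1 subunit with the largest rise, had 0.292, 0.643, 0.487, 0.374 and 0.117 FPKM in the Ctrl mice 1 to 5. It had 0.741, 0.158, 5.34, 4.61, 4.35 and 1.99 FPKM in the Case mice 1 to 6. Case 2 lay inside the Ctrl range and Case 1 just above it, while Case 3 to 6 were well above it. The mean was 7.48 times that of Ctrl, and the fitted log2 fold change was 2.80 ± 0.71 (SE, q = 0.0235, edgeR's quasi-likelihood test). Fosb, its close relative, was split in the same way among the mice. It had 0 FPKM in Case 1 (0 counts, which allows up to 3 counts) and 0.106 in Case 2, and 0.300 to 0.801 in Case 3 to 6, against 0.0493 to 0.220 in Ctrl. The log2 fold change of Fosb was 1.92 ± 0.75 and did not pass the test (q = 0.111, edgeR's quasi-likelihood test).

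Junb, which pairs with Fos proteins, had 2.68 to 4.12 FPKM in Ctrl and 11.8, 3.72, 12.1, 11.5, 11.7 and 6.75 FPKM in the Case mice 1 to 6. Here Case 1 was as high as the others and Case 2 alone lay in the Ctrl range. Its log2 fold change of 1.31 ± 0.26 had the lowest q of the 10 genes (0.00821, edgeR's quasi-likelihood test). Jun, encoded by a gene with a single exon, had 6.46 to 8.87 FPKM in Ctrl and 6.24 to 13.4 in Case, with 4 of the 6 Case mice above all Ctrl mice, and did not pass (log2 fold change 0.39 ± 0.19, q = 0.186, edgeR's quasi-likelihood test).

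Egr1 had 0.344, 0.892, 0.293, 0.519 and 0.464 FPKM in the Ctrl mice 1 to 5 and 0.551, 0.733, 4.62, 5.14, 4.36 and 1.57 in the Case mice 1 to 6. Both Case 1 and Case 2 lay inside the Ctrl range, and the other 4 lay above it. The mean was 5.63 times higher in Case (log2 fold change 2.40 ± 0.58, q = 0.0182, edgeR's quasi-likelihood test). Nr4a1 had 1.18 to 1.82 FPKM in Ctrl and 1.99, 1.02, 5.82, 8.37, 8.64 and 2.96 FPKM in the Case mice 1 to 6. Case 2 lay below all Ctrl mice, and Case 3 to 5 were the highest. Its rise (1.52 ± 0.46) was close to the threshold (q = 0.0486, edgeR's quasi-likelihood test), and it was lost in 9 of the 11 fits that left out 1 mouse.

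Ier2 rose by less, from 2.94 ± 0.753 FPKM (SD, n = 5) to 5.08 ± 1.22 (SD, n = 6), a log2 fold change of 0.70 ± 0.21 (q = 0.0439, edgeR's quasi-likelihood test), and this call was lost in 8 of the 11 fits that left out 1 mouse. Dusp1, the phosphatase, had 6.49 to 9.40 FPKM in Ctrl and 6.69 to 18.2 in Case, and 4 of the 6 Case mice were above all Ctrl mice. It did not pass (log2 fold change 0.42 ± 0.20, q = 0.198, edgeR's quasi-likelihood test). Atf3 had 0.381 to 0.739 FPKM in Ctrl and 0.319 to 1.48 in Case (log2 fold change 0.31 ± 0.36), and Ier3 had 7.44 to 14.6 in Ctrl and 8.19 to 18.7 in Case (log2 fold change -0.02 ± 0.22). Neither passed, and the groups overlapped in both genes.

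The Case count depended on single mice and on the possible batch. Without Ctrl 3 only Junb passed, and without Case 1 Fosb passed too, which made 6. The fits without Ctrl 1, 2 or 4 or without Case 3, 4 or 5 gave 3 calls each, and the fit without Ctrl 5 gave 2. With a term for the possible batch, Junb alone passed (q = 0.0303, edgeR's quasi-likelihood test), and Fos had a log2 fold change of 2.35 ± 1.22, Egr1 of 1.42 ± 0.90, Nr4a1 of 0.92 ± 0.64 and Fosb of 0.074 ± 1.06. Within the possible batch, which held 1 Case and 4 Ctrl mice, the log2 difference (log2 CPM, counts scaled to library size) was 0.66 for Fos, 0.16 for Egr1, 0.32 for Nr4a1 and 1.62 for Junb, and -1.67 for Fosb. In the other libraries, 5 Case and 1 Ctrl, it was 3.75 for Fos, 2.38 for Egr1, 1.12 for Nr4a1, 1.11 for Junb and 0.74 for Fosb.

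**Figure D2:**
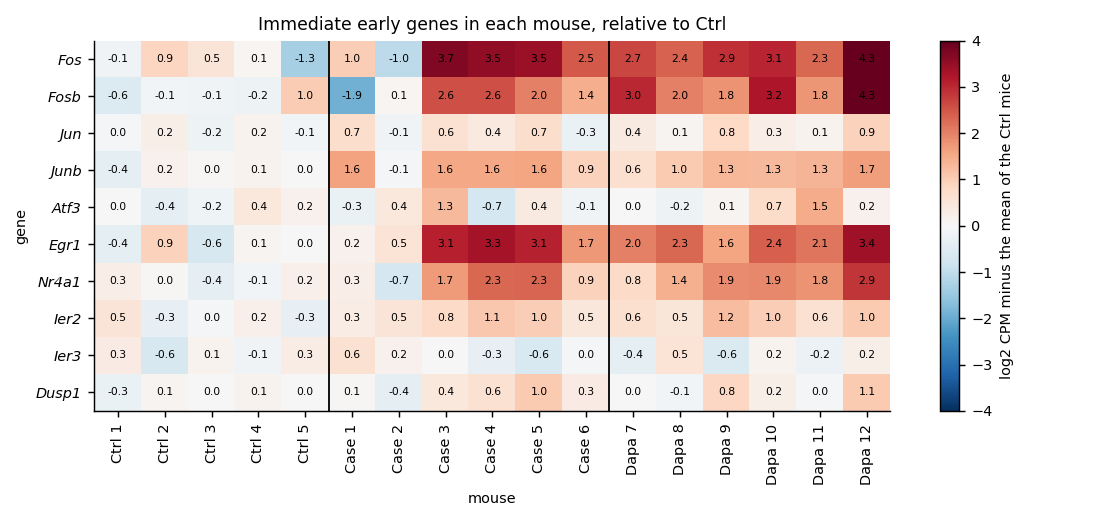
Each cell gives the log2 CPM of a gene (rows) in a mouse (columns) minus the mean of the 5 Ctrl mice, with red for higher and blue for lower. Fos, Fosb and Egr1 are the reddest rows, in Case 3 to 6 and all Dapa mice, while Atf3 and Ier3 show both colours in every group.

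The mice differed in how many of the 10 genes were raised. Of the 10, 5 exceeded the highest Ctrl mouse in Case 1 and 2 did so in Case 2, against 9, 8, 8 and 6 in the Case mice 3 to 6 in that order. In the Dapa mice 7 to 12 the numbers were 7, 8, 8, 9, 8 and 9. The share of all genes above the highest Ctrl mouse was not counted for single mice, so these numbers have no background beside them. The mean log2 difference from Ctrl over the 10 genes was 0.25 in Case 1 and -0.05 in Case 2, and 0.78 to 1.57 in Case 3 to 6, and it was 0.97 to 2.00 in the Dapa mice.

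The comparison of Dapa with Case asked whether dapagliflozin shifted these levels. None of the 10 genes passed the test, as 0% of the 14573 genes tested did, higher, lower or with the fold threshold, and none of the 10 had an unadjusted p under 0.05 (1880 of all genes had). With DESeq2, which called 200 of all genes, none of the 10 passed either. No gene of the 10 had Dapa mice fully apart from Case mice (0.480% of all genes). The log2 fold changes lay between -0.04 for Junb and 1.31 for Fosb, and 6 of the 10 were positive. By mean FPKM, which is scaled to the library total alone, 8 of the 10 were higher in Dapa.

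Fosb, with 1.04, 0.513, 0.411, 1.21, 0.433 and 2.66 FPKM in the Dapa mice 7 to 12, had the largest difference from Case (log2 fold change 1.31 ± 0.67, q = 0.414, edgeR's quasi-likelihood test), and 3 of the 6 Dapa mice were above all Case mice. Fos had 2.50, 2.03, 2.88, 3.24, 1.98 and 7.99 FPKM in the Dapa mice 7 to 12, with Dapa 12 far above the rest. Its difference from Case was small beside its error (0.25 ± 0.59). Egr1 (-0.04 ± 0.49) and Nr4a1 (0.42 ± 0.46) had errors of about the same width. The errors were smaller for Ier2 (0.14 ± 0.18), Jun (0.08 ± 0.20), Ier3 (-0.01 ± 0.22), Dusp1 (-0.0015 ± 0.25), Junb (-0.04 ± 0.25) and Atf3 (0.21 ± 0.39).

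Treated db/db mice were also compared with Ctrl. This comparison shares the Ctrl mice with the first one and the Dapa mice with the second, so the 3 are not independent. Of the 10 genes, 7 were higher in Dapa (q under 0.05, edgeR's quasi-likelihood test, 14647 genes tested) and none was lower, while 29.1% of all genes were called and 14.2% were called higher. With the fold threshold 5 were left (Fosb, Fos, Egr1, Nr4a1 and Junb), against 7.18% of all genes. In 7 of the 10 genes every Dapa mouse was above every Ctrl mouse, and 14.5% of all genes had groups that stood apart in either direction.

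Fosb had the largest log2 fold change, 3.23 ± 0.59 (q = 0.00208, edgeR's quasi-likelihood test), with 0.411 to 2.66 FPKM in Dapa against 0.0493 to 0.220 in Ctrl. It had 22 to 130 counts in Dapa and 3 to 13 in Ctrl, so it entered the test through the Dapa mice. The size of its change rests on Ctrl values near the floor. Fos rose by 3.05 ± 0.46 on the log2 scale (q = 0.000727, edgeR's quasi-likelihood test), and its mean of 3.44 ± 2.28 FPKM (SD, n = 6) was 8.98 times that of Ctrl. Egr1 had 2.08, 2.58, 1.47, 2.70, 2.35 and 5.48 FPKM in the Dapa mice 7 to 12, all above the highest Ctrl mouse at 0.892, and rose by 2.35 ± 0.35. Nr4a1 had 2.91, 4.67, 6.12, 6.42, 6.23 and 12.7 FPKM in the same mice and rose by 1.94 ± 0.31. Junb rose by 1.26 ± 0.17 and Ier2 by 0.84 ± 0.20, with lowest Dapa mice at 6.07 and 4.45 FPKM, above the highest Ctrl mice at 4.12 and 3.97. Jun rose by 0.46 ± 0.16 (q = 0.0437, edgeR's quasi-likelihood test), with 8.96 FPKM in the lowest Dapa and 8.87 in the highest Ctrl mouse, and lost its call in 6 of the 11 fits that left out 1 mouse. The other 3 did not pass: Atf3 had a log2 fold change of 0.51 ± 0.34, Dusp1 of 0.41 ± 0.21 and Ier3 of -0.03 ± 0.22.

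Here the term for the possible batch left the same 7 genes called. Within the possible batch, with 3 Dapa and 4 Ctrl mice, the log2 difference was 2.89 for Fos, 3.35 for Fosb, 2.64 for Egr1, 2.25 for Nr4a1 and 1.44 for Junb. In the other libraries, with 3 Dapa mice and 1 Ctrl mouse, it was 3.97 for Fos, 1.27 for Fosb, 1.99 for Egr1, 1.17 for Nr4a1 and 1.01 for Junb.

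**Figure D3:**
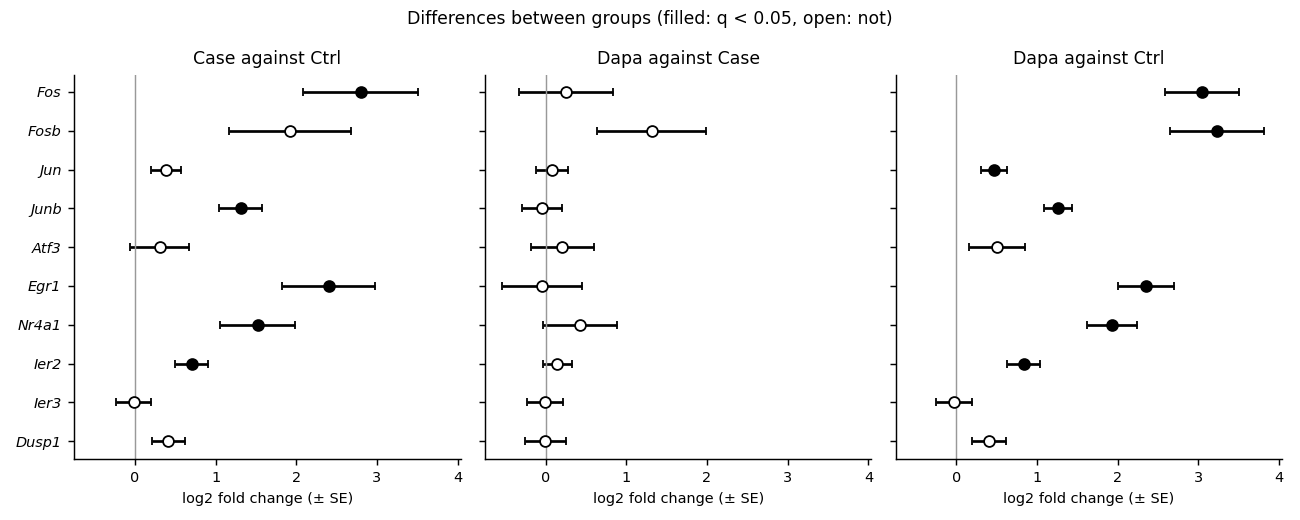
Fitted log2 fold changes of the 10 genes (points) with their standard errors (bars) in the 3 comparisons, filled where q was under 0.05. Fos, Fosb and Egr1 lie farthest from 0 against Ctrl, from 1.92 to 3.23, and all 10 points are open in Dapa against Case.

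The variation between mice within a group was examined next, since Case 1 and 2 differed so much from the other Case mice. As these mice prompted the comparison and enter it, its p-values are no independent evidence. After subtraction of the group means, the log2 CPM of Fos was set against the other 9 genes and against library total, mitochondrial share and the share of the 10 most abundant genes in all 17 mice (100000 permutations within groups, two-sided, adjusted over these 12 relations). It rose with Dusp1 (r = 0.76, rho = 0.76, permutation p = 0.00045, q = 0.00540), with Egr1 (r = 0.81, rho = 0.73, permutation p = 0.00238, q = 0.00952) and with Nr4a1 (r = 0.82, rho = 0.63, permutation p = 0.00165, q = 0.00952). By rho, Dusp1 (q = 0.00816) and Egr1 (q = 0.0262) passed the permutation test again, Nr4a1 did not (q = 0.0651) and Fosb did (rho = 0.71, q = 0.0262). By r, Fosb (r = 0.63, q = 0.110) and Junb (r = 0.72, q = 0.0610) did not pass, and without Case 2 the r of Junb was 0.34. Jun had r = 0.51, Ier2 0.48, Atf3 -0.08 and Ier3 -0.42.

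Without Case 1 and Case 2, of the 9 relations with the other genes Jun alone passed by r (r = 0.69, permutation q = 0.0434). Dusp1 (r = 0.60), Egr1 (0.62) and Junb (0.60) had the same permutation q of 0.0675, and Nr4a1 (r = 0.48) and Fosb (0.38) did not pass either. By rho, Jun, Junb, Egr1 and Dusp1 passed (permutation q = 0.0383 each).

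Without Case 2 and Case 3, the mice farthest from the median of Fos, the correlation of Fos was 0.77 with Egr1 (q = 0.0345, permutation test) and 0.71 with Dusp1 (q = 0.0322, permutation test), and that with Nr4a1 was 0.67 (q = 0.0841, permutation test). None of the 12 relations passed within the libraries of the possible batch (8 mice) or within the other libraries (9 mice), where fewer mice entered. The possible batch held 4 Ctrl, 1 Case and 3 Dapa mice, which leaves few permutations within groups. There 1 relation alone could not reach a q under 0.05, so its failure decides nothing. The r in the possible batch and then in the other libraries was 0.92 and 0.77 for Dusp1 and 0.76 and 0.90 for Egr1. It was 0.66 and 0.92 for Nr4a1 and 0.92 and 0.88 for Fosb. Atf3 had r = -0.90 within the possible batch and -0.03 in the other libraries. Fos did not pass with library total (r = 0.21), mitochondrial share (r = 0.08) or the share of the 10 most abundant genes (r = 0.04). Over all 45 pairs of the 10 genes, 33 correlations were positive, with a median of 0.36 and a range of -0.47 to 0.84.

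**Figure D4:**
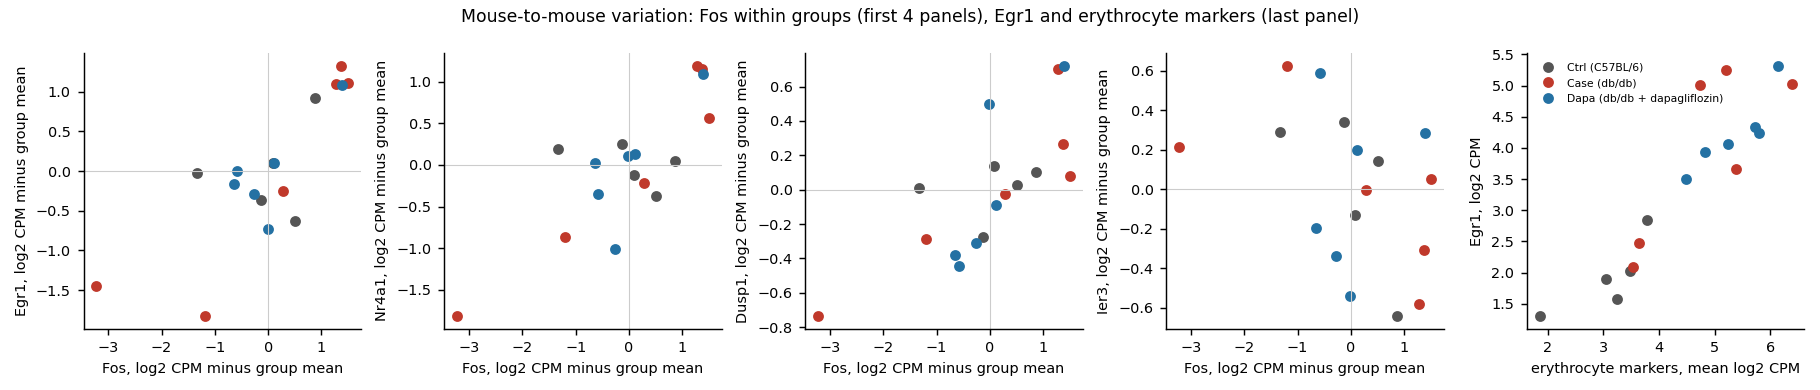
Log2 CPM of Egr1, Nr4a1, Dusp1 and Ier3 against that of Fos in 17 mice, both minus the group mean (first 4 panels), and log2 CPM of Egr1 against the mean log2 CPM of 5 erythrocyte markers, not centred (last panel). Egr1, Nr4a1 and Dusp1 rise with Fos (r of 0.81, 0.82 and 0.76), Ier3 does not (r of -0.42), and Case 1 and 2 lie among the Ctrl mice in the last panel.

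Markers of erythrocytes were higher in the db/db groups too. All 5 erythrocyte markers (Hba-a1, Hba-a2, Hbb-bs, Hbb-bt and the heme synthesis enzyme Alas2) were higher in Case and in Dapa than in Ctrl, while 6.09% and 14.2% of all genes were. Their log2 fold changes were 1.78 to 2.52 in Case and 2.08 to 2.64 in Dapa, and none was at 0 in any group. Their summed level was 18.2 to 69.6 FPKM in the Ctrl mice. It was 56.7 in Case 1 and 64.0 in Case 2, inside the Ctrl range, and 436, 185, 140 and 194 in the Case mice 3 to 6. The Dapa mice had 110 to 358. Case 3 to 6 and the Dapa mice, which were high in Fos and Egr1, were all above the Ctrl range of these markers.

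Within groups, the mean log2 CPM of the erythrocyte markers was set against each of the 10 genes over 17 mice, a comparison chosen after Case 1 and Case 2 had been seen to be low in both, so its p is no independent evidence. Egr1 rose with it (r = 0.80, permutation p = 0.00099, q = 0.00990 over 10 relations, and rho = 0.75, permutation p = 0.00284, q = 0.0284). Without Case 1 and Case 2 the r of Egr1 was 0.60 and did not pass (permutation p = 0.0294, q = 0.294), and that of Fos was 0.23. Without Case 1 and Case 3, the mice farthest from the median of the markers, the r of Egr1 was 0.73 (permutation q = 0.0327), and its rho of 0.73 did not pass (permutation q = 0.0713). The r of Egr1 was 0.81 within the possible batch (8 mice) and 0.69 in the other libraries (9 mice), where it did not pass (permutation q = 0.284 and 0.521). Inside the possible batch, with 1 Case mouse, the permutations are too few for 1 relation alone to pass. Fosb (r = 0.66, permutation q = 0.0744), Fos (r = 0.61, permutation q = 0.0934) and Nr4a1 (r = 0.60, permutation q = 0.0934) did not pass. Over the 17 mice Ier3 (r = -0.09), Jun (0.13) and Ier2 (0.18) had the values closest to 0, although Jun had 0.74 within the possible batch (permutation q = 0.0744). The part of blood content in the differences of the 10 genes was not tested.

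Heat shock genes were mostly lower than in Ctrl, with a positive log2 fold change in 1 of 12 in Case and in 2 in Dapa. What this means for the immediate early genes was not tested. Of 12, 7 were lower in Case and 9 were lower in Dapa than in Ctrl, and none was higher, while 6.91% of all genes were called lower in Case and 14.9% in Dapa. With library totals without mitochondrial genes 7 were lower in each. The co-chaperone Dnaja1 fell by 0.89 ± 0.11 (SE) on the log2 scale in Case and by 1.07 ± 0.12 in Dapa, and the chaperone Hspa8 fell by 0.82 ± 0.18 and by 1.13 ± 0.19. The summed level of the 12 was 632 to 737 FPKM in Ctrl, 430 to 513 in Case and 415 to 512 in Dapa. Case 1 and 2 had 466 and 513. Hspd1 and Hspa8 gave a large part of this sum, with means of 235 and 139 FPKM in Ctrl. By the mean log2 CPM of the 12, in which each gene weighs the same, the groups overlapped, with 6.22 to 6.88 in Ctrl, 5.74 to 6.34 in Case and 5.80 to 6.46 in Dapa, and Case 2 and 3 and Dapa 11 and 12 lay inside the Ctrl range. In bulk tissue, fewer cells of a type and less RNA per cell cannot be told apart. Of 7 proximal tubule markers 2 fell in Case and 5 in Dapa (3 in Dapa with upper quartile scaling or with library totals without mitochondrial genes), with summed levels of 2039 to 2293 FPKM in Ctrl, 1320 to 2468 in Case and 1504 to 2018 in Dapa, and their part in the results was not tested.

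Markers of other cell types were counted in the same way. Of 8 markers of the loop and distal nephron, 3 were higher in Case and 4 in Dapa (6.09% and 14.2% of all genes were), among them Calb1, a calcium-binding protein of the distal tubule, with log2 fold changes of 1.55 ± 0.27 and 1.62 ± 0.19. Of 5 podocyte markers 2 were higher in both, and of 7 endothelial markers none passed. With library totals without mitochondrial genes, 7 of the 8 loop and distal nephron markers and 4 of the 7 endothelial markers were higher in Dapa. Of 6 smooth muscle and pericyte markers none passed in Case and 2 were higher in Dapa, Tagln (1.01 ± 0.33) and Acta2 (0.99 ± 0.32), both of the contractile apparatus. Of 8 macrophage markers Cd14, a receptor for bacterial lipopolysaccharide, was the single one that passed (1.41 ± 0.38 in Case and 1.04 ± 0.29 in Dapa), and their summed level was 201 FPKM in Case 3 against 24.9 to 61.0 in the other 16 mice. Of the adrenal gland list 4 genes had an entry and 2 could be tested, with Cyp11a1 and Cyp21a1 at a median of 0 FPKM and Star at no more than 0.858, and 1 passed. This gene, the steroid enzyme Hsd3b1, had a mean of 0.184 FPKM in Ctrl, 0.644 in Case and 4.25 in Dapa and was higher in both (1.72 ± 0.50 and 4.42 ± 0.82). None of the few markers of T and NK cells, neutrophils and adipocytes that could be tested passed. The summed adipocyte markers, however, were 88.5 FPKM in Ctrl 3 against 3.22 to 29.2 in the other 16 mice. The part of these cell types in the differences of the 10 genes was not tested.

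**Figure D5:**
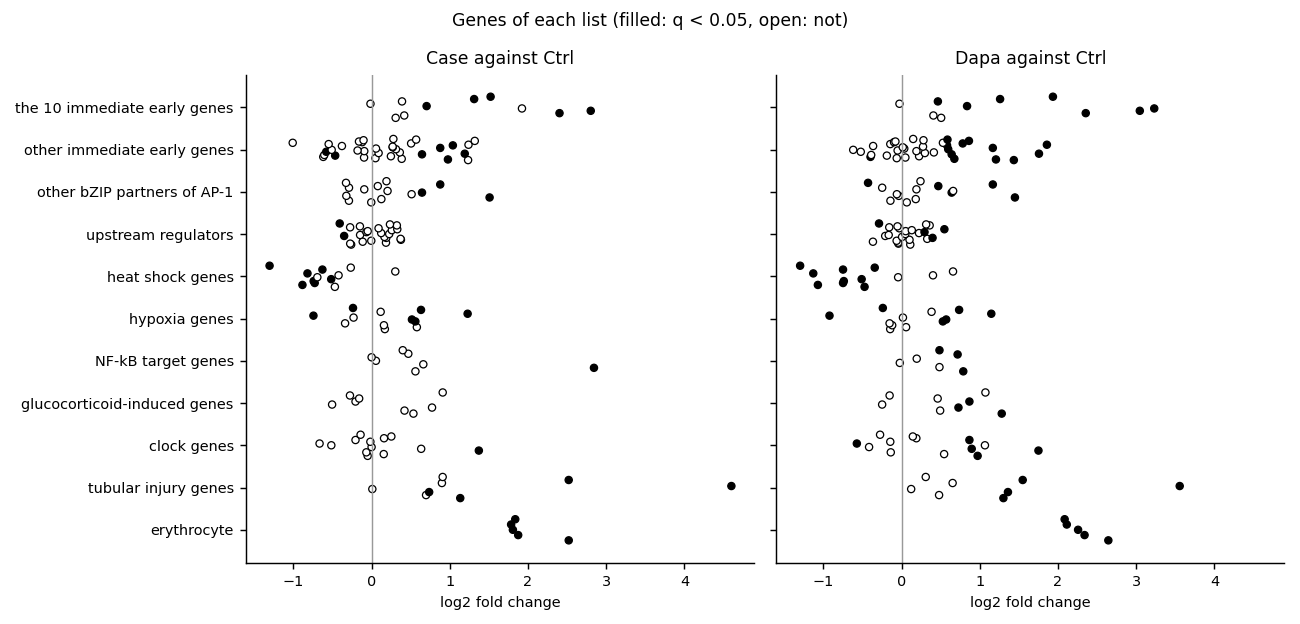
Log2 fold changes of single genes (points, filled where q was under 0.05) in 11 lists, in Case against Ctrl and Dapa against Ctrl. The 10 immediate early genes and the erythrocyte markers lie mostly to the right of 0 and the heat shock genes mostly to the left, while upstream regulators stay within a narrow range.

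A wider list of immediate early genes was examined as well. Of 34 tested, 5 were higher and 2 lower in Case than in Ctrl (20 had a positive log2 fold change, with a median of 0.17), and 12 were higher and 1 lower in Dapa than in Ctrl (median 0.25). The share of all genes called was 13.0% in Case and 29.1% in Dapa. The balance depended on the scaling, since with library totals without mitochondrial genes 10 were higher and 0 lower in Case and 16 were higher and 0 lower in Dapa. None passed between Dapa and Case by the quasi-likelihood test of edgeR, where 1 passed with its exact test and 1 (Plk3) with DESeq2. Gadd45b, which arrests growth after stress, rose by 1.19 ± 0.17 in Case and by 1.76 ± 0.38 in Dapa. Btg2, an antiproliferative gene, rose by 0.98 ± 0.13 and by 1.21 ± 0.22, with 5.67 ± 0.960 FPKM in Ctrl (SD, n = 5), 11.8 ± 2.20 in Case (n = 6) and 14.1 ± 5.50 in Dapa (n = 6). The AP-1 partners Maff (0.88 ± 0.25 and 1.17 ± 0.30) and Fosl2 (0.64 ± 0.17 and 0.64 ± 0.13) were higher in both. Nr4a2, a relative of Nr4a1, passed in Dapa against Ctrl (1.86 ± 0.40), as did the neuronal early gene Arc (1.44 ± 0.39).

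Genes that act upstream were also counted, beside the 13.0% of all genes called in Case and the 29.1% called in Dapa. Of 23 kinases and factors listed as upstream regulators, 2 fell in Case relative to Ctrl (Srf by 0.41 ± 0.12 and Map2k2 by 0.35 ± 0.09 on the log2 scale). In Dapa 1 was lower (Srf, which fell by 0.29 ± 0.10) and 3 were higher (Mkl2 by 0.55 ± 0.14, Elk4 by 0.40 ± 0.09 and Mapk8 by 0.29 ± 0.10). With library totals without mitochondrial genes these counts were 2 higher and 0 lower in Case and 7 higher and 0 lower in Dapa, so the fall of Srf and Map2k2 depended on the scaling. Srf encodes serum response factor, which drives Fos and Egr1 through CArG boxes, and the promoter of Egr1 was not among those searched. Of 14 tested bZIP partners of AP-1, 3 were higher in Case and 4 were higher and 1 lower in Dapa (7 higher and 1 lower with library totals without mitochondrial genes), and Batf3 had the largest change (1.51 ± 0.37 and 1.45 ± 0.49).

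Lists of other acute responses were mixed, beside the 13.0% and 29.1% of all genes called. Among 12 hypoxia genes, 4 were higher and 2 lower in both comparisons with Ctrl, with Pdk1, which slows entry of pyruvate into mitochondria, at 1.23 ± 0.13 in Case and P4ha1, a collagen hydroxylase, lower by a log2 fold change of -0.74 ± 0.13. The NF-kB targets had 1 of 7 higher in Case (the chemokine Cxcl1, 2.84 ± 0.55) and 3 of 6 higher in Dapa, and with library totals without mitochondrial genes 3 of 7 were higher in Case and 4 of 6 in Dapa. Of 8 glucocorticoid-induced genes none passed in Case and 3 were higher in Dapa (Cdkn1a, Per1 and Fkbp5). Of 13 clock genes 1 was higher in Case (Cry1, 1.37 ± 0.26), and 4 were higher and 1 lower in Dapa, among them Per1, which rose by 0.87 ± 0.26. The hour at which each mouse was killed, the order of collection and the handling of single kidneys are not given in the sources used here, and their part in the difference of Case 1 and 2 from the other Case mice was not tested. Of 8 tubular injury genes tested 4 were higher in both comparisons, Lcn2, Spp1, Clu and Krt18, with summed levels of 142 to 211 FPKM for the 10 genes listed in Ctrl, 329 to 1539 in Case and 328 to 782 in Dapa. The part of these lists in the differences of the 10 genes was not tested.

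The genes whose pattern over the 17 mice was most like that of the 10 were then ranked among 11146 genes with a mean of at least 5 CPM, by their correlation with the mean of the 10 after subtraction of group means. The closest were Kctd3 (r = 0.83), C77080 (0.83), Tes (0.82), Midn (0.81), Vegfb (0.81), Wdr6 (0.80), Zswim4 (0.79), Cabin1 (0.79), Kif1c (0.79) and Arhgdia (0.79), a description over 17 libraries that differ in depth and in which the genes of a mouse share its library. None of the other immediate early genes was among these 10. Of the 28 of them that were ranked, 21 had a positive r, with a median of 0.23 against -0.02 over all genes.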

How the data were processed

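Per the labels and the methods of the study, total RNA of whole kidney was made into strand-specific libraries with oligo(dT) enrichment, 1 per mouse. The authors used HISAT2 (mm10) for alignment and Stringtie for quantification, and the deposited values are gene counts and FPKM. Each deposited FPKM value could be rebuilt from the count, the total of the library and the length of the gene within 0.0048%. Of 22561 genes, 3 (Sirt1, Tgfb1 and Bmp4) were left out because their entries ran over 2 lines and did not match in 8 libraries (tolerance 0.05%).

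Groups were those of the labels. Each pair of groups was fitted alone with the quasi-likelihood test of edgeR 4.0.16 after TMM scaling and filterByExpr in R 4.3.3, on all genes passing the filter, and all 10 members passed. Fosb passed through its counts in db/db mice, and without Case 3, 4, 5 or 6 it was not tested in Case against Ctrl. A gene was called at a q under 0.05. Log2 CPM values used a prior count of 2. Limma 3.58.1, DESeq2 1.42.0 and other settings served as alternatives. Correlations used Python 3.11.15 with scipy 1.17.1. The fits and permutation tests were tested on simulated data. The members, lists and tests were chosen with earlier results of these data known. The genes named were all 10 members, up to 5 called genes of a list with the largest change, the 10 genes most like the members, and markers of the tissue, of which only some are printed. Lists of loop and distal nephron, podocyte, endothelium, smooth muscle, macrophage, T and NK cell, neutrophil, adipocyte and adrenal gland markers were also measured. Promoter sequences were from RefSeq (GRCm38.p6) and annotation from GENCODE M21. Counting error weighs most on Fos in Ctrl and on Fosb and Atf3. No libraries of a group were duplicates (lowest chi-square per gene 16.4).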

Additional observations from a re-analysis of the deposited data

Results flagged for a closer look

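In each of the 30 sets formed by 1 gene and 1 group, the highest and the lowest mouse were compared with the rest of the group, and 7 values lay far from the others. Chance gives this in about 1 in 20 sets of normally distributed values, whereas FPKM values are skewed and the 10 genes share their mice. Of the 7, 4 were of the same mouse, Dapa 12. Dapa 12 stood apart in Fos (7.99 FPKM, next mouse 3.24), Fosb (2.66 FPKM, next 1.21), Egr1 (5.48 FPKM, next 2.70) and Nr4a1 (12.7 FPKM, next 6.42). The calls of these 4 genes in Dapa against Ctrl held without Dapa 12. Dapa 12 had the second highest summed erythrocyte markers of all mice (358 FPKM), and of the 17 libraries it had the fewest counts (13039535) and the highest mitochondrial share (27.6%), whose part in these values was not tested. Atf3 was high in Case 3 (1.48 FPKM, next 0.751) and in Dapa 11 (1.70 FPKM, next 0.937), and Fosb in Ctrl 5 (0.220 FPKM, or 13 counts, next 0.0813).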

How the results depend on the processing

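In Case against Ctrl, where 5 members were called, 3 were called with no filter, 2 with limma on log2(FPKM + 1), 3 with limma on log2(FPKM + 0.1), 1 with a term for the possible batch and 2 with voom and sample quality weights, and leaving out 1 mouse gave 1 to 6. With the replicate number as a block in mice 1 to 5 (replicate block) 0 were called with 6 unadjusted p under 0.05, against 4 in the same mice without the block. Mice that share a number did not deviate together (r from -0.06 to -0.01), so the numbers pair nothing. In Dapa against Case 0 members were called in all settings, and in Dapa against Ctrl 5 to 7. Of the other immediate early genes, 7 were called in Case against Ctrl, and 3 with the fold threshold, 11 with DESeq2, 11 with the exact test of edgeR, 4 with no filter, 3 with the batch term, 3 with the replicate block and 2 to 11 without 1 mouse. In Dapa against Case 1 was called with DESeq2 and 1 with the exact test (0 in the fits without 1 mouse), and in Dapa against Ctrl 5 with the fold threshold instead of 13 (10 to 14 without 1 mouse). The correlations of Fos that passed numbered 7 without subtraction of the group mean, 0 within each side of the possible batch and 3 to 6 without 1 mouse. Inside the possible batch 1 relation alone could not have passed.

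Members near 0 changed sign, none of them called. In Case against Ctrl, Atf3 had -0.0044 with the batch term, and Ier3 had 0.026 with upper quartile scaling, 0.13 with library totals without mitochondrial genes, 0.054 and 0.057 with limma and 0.097 with the batch term. In Dapa against Case, with library totals without mitochondrial genes, Junb had 0.0049, Egr1 0.0079, Ier3 0.027 and Dusp1 0.048, with limma on log2(FPKM + 1) 0.036, 0.13, 0.0093 and 0.014, with limma on log2(FPKM + 0.1) 0.051, 0.30, 0.0095 and 0.016, and with voom the first 3 had 0.076, 0.27 and 0.024. Dusp1 had 0.0013 with median ratio scaling, 0.0099 with upper quartile scaling, 0.0013 with at least 10 counts in every sample and 0.0090 with the batch term, under which Atf3 had -0.022. In Dapa against Ctrl, Ier3 had 0.015 with upper quartile scaling, 0.16 with library totals without mitochondrial genes, and 0.063 and 0.067 with limma. Correlations of Fos turned to 0.13 with Atf3 and -0.29 with library total without subtraction of group means, to -0.059, 0.011 and -0.44 with Ier2, Ier3 and library total within the possible batch, and to -0.33 with both the mitochondrial share and the share of the 10 most abundant genes in the other libraries.

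Leaving out 1 mouse turned signs in these ranges. In Case against Ctrl they were -0.042 to 0.45 for Atf3 and -0.18 to 0.069 for Ier3. In Dapa against Case they were -0.18 to 0.50 for Fos, -0.026 to 0.16 for Jun, -0.21 to 0.058 for Junb, -0.12 to 0.55 for Atf3, -0.35 to 0.22 for Egr1, -0.14 to 0.14 for Ier3 and -0.17 to 0.17 for Dusp1. For Ier3 in Dapa against Ctrl the range was -0.16 to 0.079. Correlations of Fos ranged from -0.35 to 0.07 with Atf3, -0.080 to 0.37 with the mitochondrial share and -0.11 to 0.33 with the 10 most abundant genes. Library totals without mitochondrial genes moved the median of all genes to 0.18 in Case against Ctrl and 0.20 in Dapa against Ctrl and left the members called the same in number. With them 1951 of 2575 calls were higher in Case, against 888 of 1895.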
